A study of Mus musculus with 4 samples.

Results

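The wild-type neurosphere signal described here is 1 of the 2 colour channels of each of 4 Agilent mouse arrays, chosen by the labels alone: 4 channels of 8 in all. Neurospheres are floating cultures that neural stem cells form, here in medium without serum to which EGF was added. The study set wild-type cells against lines mutant for Dll1, named Dll1-3 and Dll1-5 in the labels, all from 129/Sv mice crossed with C57BL/6. The label of a line refers to the mutant RNA on the other channel of the array and not to the wild-type RNA, for which the labels list no mutation or treatment. Wild-type RNA was in Cy3 on replicate 1 and in Cy5 on replicate 2 of each line, so the replicate number is the dye. Each pool held RNA of 3 preparations, and the arrays of a line were taken to carry the same pools with the dyes exchanged, which makes each line 1 sample. Whether the wild-type RNA of the Dll1-3 arrays and that of the Dll1-5 arrays came from separate cultures or animals is not stated in the labels, nor are the age and sex of the mice.

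Neurospheres are known to mix stem cells, which resemble the radial glia of the embryonic brain, with progenitors on their way to astrocytes, oligodendrocytes and neurons. EGF keeps them dividing and favours glial over neuronal fates. Notch receptors, bound by Dll1 and other ligands on neighbouring cells, release an intracellular fragment that joins Rbpj and switches on Hes and Hey repressors, which hold back proneural factors. Cst3 codes for the protease inhibitor cystatin C, Apoe for a lipid carrier and Aldoc for a glycolytic aldolase, all abundant in astroglia, and Hes6 is a Hes relative of committed progenitors.

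The value of a gene is the net signal of its brightest probe, the mean spot signal less the median local background, in arbitrary scanner units. Genes were ranked within each channel, and rank is the percentile among all 27389 gene names, averaged over the 4 channels. A gene was called abundant when it lay in the top 10% of every channel and was well above background, by the scanner software's flag, in all channels that measured it. It was called moderate when it was well above background in all of them without being abundant. By these rules 2582 genes were abundant (9.43%), 17951 moderate (65.5%) and 4050 well above background in only part of the channels (14.8%), called partly detected below. The remaining 2806 (10.2%) had no probe well above background in any channel. Of the 19601 genes with a RefSeq symbol, 11.8% were abundant, which is the nearer base for lists of named genes. The brightness of a spot depends on its probe as well as on the RNA, so classes and ranks describe signal, and they do not order the copy numbers of different genes.

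The flag was generous, and a second limit was added after the data had been seen. A gene was called clear when its net signal exceeded the 99th percentile of the 314 negative control spots in every channel that measured it. That held for 14799 genes (54%), among them 12217 of the 17951 moderate genes, and for 63.4% of genes with a RefSeq symbol. The median net signal of a gene was 87.9 and 78.0 in Cy3 and 140.8 and 128.4 in Cy5. The control limit was 64.2 and 60.6 in Cy3 and 70.9 and 94.1 in Cy5, and the lowest signal within the top 10% was 1113 and 1014 in Cy3 and 2684 and 2595 in Cy5. In each such pair, and in all that follow, the Dll1-3 array is given before the Dll1-5 array. The top 10% began at a higher signal in Cy5 than in Cy3, and ranks taken within channels leave that difference of scale out. The 40 probes printed 10 times each had a median coefficient of variation of 4.79% to 6.33% per channel, over those above the control limit.

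**Figure D1:**
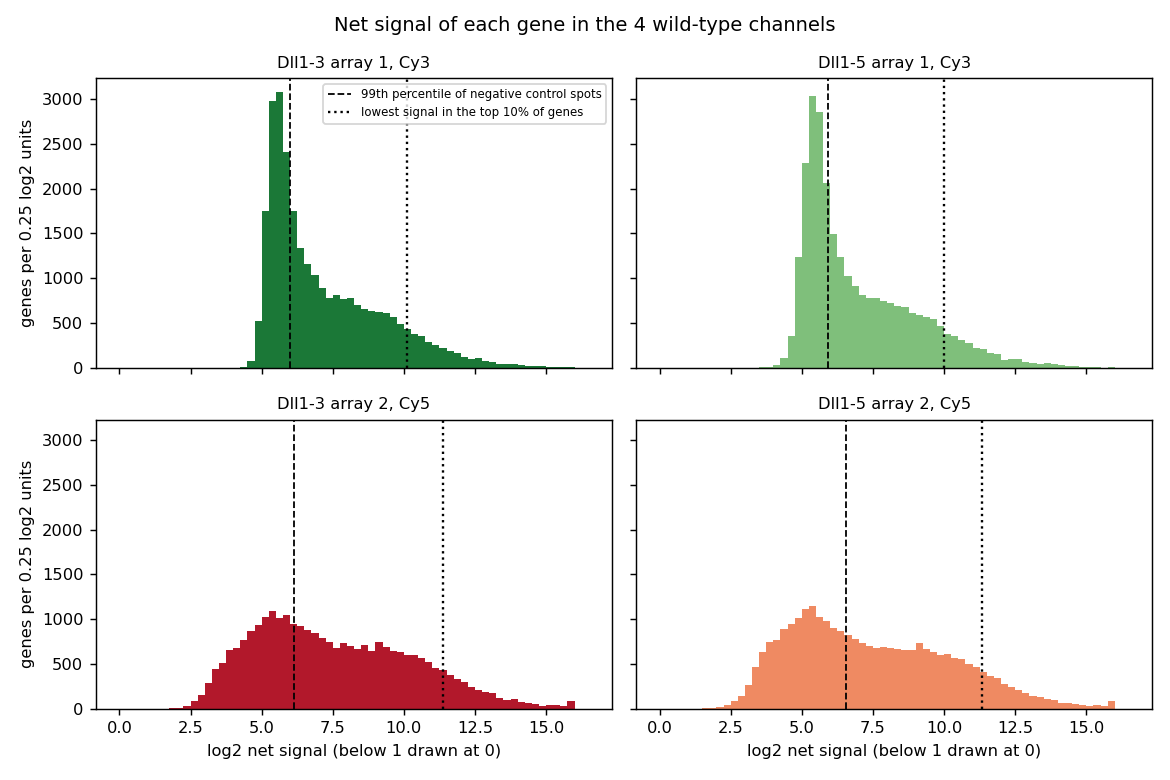
Histograms of log2 net signal of each gene in the 4 wild-type channels, Cy3 in the upper row and Cy5 in the lower row; the dashed line is the 99th percentile of the negative control spots and the dotted line the lowest signal in the top 10% of genes. In Cy3 the dim genes pile up just below the control limit of 64.2 and 60.6, and in Cy5 they spread over a wider range, with a small heap of saturated spots at the right edge.

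All 5 genes given as markers were abundant. Cst3 read 43051 and 37000 in Cy3 and 65202 and 65204 in Cy5, at rank 99.9. Apoe read 36252 and 35804 in Cy3 and 65201 and 65202 in Cy5, at rank 99.9. Both Cy5 readings of each are saturated, so they are lower bounds. Aldoc read 10289 and 9261 in Cy3 and 20302 and 18972 in Cy5, at rank 98.9, with no saturated spot. Hes6 read 3890 and 3734 in Cy3 and 8712 and 8516 in Cy5, at rank 97.1. Dll1 itself, the gene mutated in the other channel, read 3825 and 3750 in Cy3 and 9518 and 9559 in Cy5, at rank 97.3. Within a dye the paired readings of Dll1 lay within a few percent of each other, and all 4 were far above the control limit. The probes used lie at chr2:148328882-148328941 (Cst3), chr7:16565628-16565687 (Apoe), chr11:78052122-78052181 (Aldoc), chr1:91234730-91234789 (Hes6) and chr17:13371312-13371371 (Dll1), as the array files give them, with no genome build named there.

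At the top of the scale 7 genes were saturated in all 4 channels, so they have no order among themselves. These were Grn, the lysosomal growth factor progranulin, Ptprz1, a receptor phosphatase of radial glia and glial progenitors, and Mfge8, a secreted protein that bridges cells to dying neighbours. The others were Lars2, the leucyl-tRNA synthetase of mitochondria, Tuba1a, an alpha-tubulin of the developing brain, Pigt, a subunit of the enzyme that attaches GPI anchors, and the mitochondrial gene for cytochrome c oxidase subunit II. A further 52 genes were saturated in both Cy5 channels and in neither Cy3 channel, where the order could still be read. Ptprz1 read 65304 and 65309 in Cy3 and 65211 and 65210 in Cy5, the ceiling of the scanner. Other probes of Ptprz1 and Pigt were far dimmer, with the dimmest at rank 58.7 and 57.9 among all probes. All of the genes next by mean rank were saturated in both Cy5 channels, so their order is not firm, and Apoe, which lay just outside by mean rank, ranked above Rps12, Rpl38 and Rack1 in both Cy3 channels. They were Rps20, Rplp0, Rplp1, Rps28, Rps23, Rpl7a, Rpl27, Rpl37a, Rplp2, Rps18, Rps12 and Rpl38, all of the cytosolic ribosome, with Eef1a1, which delivers tRNA to it, and Rack1, a scaffold on its small subunit. Cd81, a membrane tetraspanin, Lrrc58, Cst3 and Cox6a1, a respiratory chain subunit measured in 3 of 4 channels, belonged to the same group. Rplp0 read 38123 and 45166 in Cy3 and was saturated at 65211 and 65212 in Cy5.

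Most members of the lists of housekeeping machinery were abundant. Of 64 cytosolic ribosomal protein genes, 61 were abundant and the other 3 moderate (Rps15, Rpl31 and Rpl14), with a median rank of 99.5 against 49.6 over all genes. Of 32 nuclear genes of the mitochondrial respiratory chain 28 were abundant, led by Cox6a1, Atp5b, Atp5a1 and Cox6c, and all 32 were clear. Translation factors gave 17 of 20, with Eef1b2, Eef1g and Eif1 next to Eef1a1, and Eef1a2, the form of neurons and muscle, was the exception within the control limit, at 47.96 and 41.3 in Cy3 and 28.5 and 31.3 in Cy5. Cytoskeletal genes gave 16 of 20, with Tuba1a, Tmsb4x, Marcks and Vim highest. Heat shock proteins gave 12 of 17, led by Hspa8, Hsp90ab1, Hsp90b1 and Hspd1, constitutive chaperones of the cytosol, endoplasmic reticulum and mitochondria. The stress-inducible Hspb1 was not clear, at 90.4 and 59.5 in Cy3 and 83.6 and 92.3 in Cy5.

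Genes of neural stem cells and radial glia were prominent. Of 25 measured, 15 were abundant, 9 moderate and 1 above background in part of the channels, with a median rank of 92.0. Fabp7, the fatty acid binding protein of radial glia, read 18490 and 15641 in Cy3 and 54128 and 56353 in Cy5. Vim, an intermediate filament protein, read 16515 and 16969 in Cy3 and 49999 and 52783 in Cy5. Both genes were bright in every channel, although the other Vim probe ranked at 6.93 among all probes. Nes, which codes for the stem cell filament nestin, read 4354 and 3844 in Cy3 and 9576 and 8972 in Cy5. Sox2, a transcription factor that maintains the stem cell state, read 4217 and 4119 in Cy3 and 10330 and 10902 in Cy5, while its other probe ranked at 36.3 among all probes and was not clear. Both of these, like the glutamate transporter gene Slc1a3 at rank 98.9, Sox9 at 96.4 and Egfr, the receptor of the EGF in the medium, at 98.1, fell in the top 10% of every channel. Pax6, a factor of cortical radial glia, was moderate at 389 and 385 in Cy3 and 912 and 876 in Cy5. Prom1, which codes for the surface antigen CD133 often used to sort stem cells, read 56.2 and 44.6 in Cy3 and 57.4 and 46.7 in Cy5, below the control limit in every channel. The surface antigen enzyme Fut4 was the member above background in only part of the channels, and Sox3 was moderate without being clear.

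The astrocyte list had 14 abundant, 12 moderate and 1 partly detected gene of 27, with a median rank of 93.6, and 26 were clear. Apart from the 3 markers already described, its brightest members were Sparcl1, a secreted synapse organiser that was saturated in Cy5, and Mlc1, a membrane protein of astrocyte end-feet. Mlc1 read 26054 and 22922 in Cy3 and 58872 and 59660 in Cy5. S100b, a calcium-binding protein of astroglia, read 3964 and 3901 in Cy3 and 9030 and 8603 in Cy5, and Slc1a2, a glutamate transporter, ranked at 93.8. Gfap, the classical filament gene of mature astrocytes, read 73.5 and 67.9 in Cy3 and 119 and 114 in Cy5, above the control limit but below the median gene in every channel, at rank 46.4. That rank is of its brightest probe, so no probe of Gfap was bright. The dimmest of its 3 probes ranked at 40.7 among all probes. Aqp4, the water channel of astrocyte end-feet, read 80.6 and 78.3 in Cy3 and 128 and 159 in Cy5, close to the median gene. Aldh1l1, a folate enzyme used as an astrocyte marker, was moderate at rank 65.4, the gap junction gene Gja1 was moderate at 87.6, and Gjb6 was flagged above background in 2 of 4 channels. In RNA of a whole culture, fewer cells of a type and less RNA per cell cannot be told apart, here and in every list that follows.

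Oligodendrocyte lineage genes ranged from abundant to partly detected. Of 20 measured, 6 were abundant (30%), 11 moderate and 3 partly detected, with a median rank of 62.04 and 13 clear (65%). Over genes with a RefSeq symbol 11.8% were abundant and 63.4% clear, with a median rank of 59.3. Olig1, a transcription factor of the lineage and of many neural progenitors, read 13965 and 13185 in Cy3 and 35873 and 35404 in Cy5. Olig2, its partner, read 3490 and 3108 in Cy3 and 8726 and 8651 in Cy5. Gpr17, a receptor of cells leaving the precursor state, read 3342 and 3027 in Cy3 and 7579 and 7436 in Cy5. All 3 were in the top 10% of every channel, as were Cnp, Mag and Bcas1, although the other Gpr17 probe ranked at 34.8 among all probes. Of the precursor genes, the PDGF receptor gene Pdgfra was moderate at 257 and 238 in Cy3 and 617 and 595 in Cy5, Sox10 was moderate at rank 62.7, and Cspg4, which codes for NG2, was moderate at 47.1. Mbp, the myelin basic protein gene, read 37.6 and 35.3 in Cy3 and 29.8 and 32.7 in Cy5 and was flagged above background in 3 of 4 channels. Mog, a late myelin gene, ranked at 20.5 and was likewise flagged in 3 of 4, and neither was clear. Cnp and Mag, given above as abundant, also code for proteins of myelin, so the myelin genes of the list did not all go the same way.

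Of 32 neuronal genes, 4 were abundant, 21 moderate, 6 partly detected and 1 not above background, and 19 were not clear. The abundant share of 12.5% is close to the 11.8% over genes with a RefSeq symbol and is no result about the list, and with the median over probes it was 2 genes. The 4 were Syn1, a synaptic vesicle protein, Uchl1, a ubiquitin hydrolase, and Map2 and Mapt, proteins that bind microtubules. Uchl1 read 15641 and 14556 in Cy3 and 41623 and 37187 in Cy5, and its other probe ranked at 95.6 among all probes. Syn1 read 15468 and 15036 in Cy3 and 46471 and 48172 in Cy5, but its other 2 probes ranked at 55.5 and 30.2 among all probes. For Map2 the other 3 probes ranked at 69.4, 69.3 and 44.95. The bright reading of Syn1 and of Map2 is therefore that of a single probe. Tubb3, a tubulin of young neurons, was moderate at 742 and 679 in Cy3 and 1771 and 1782 in Cy5, and Dcx, of migrating neurons, was moderate at 258 and 227 in Cy3 and 456 and 465 in Cy5 by 1 of its 3 probes. Of mature neuron genes, Syt1 was moderate at rank 55.7, Rbfox3 read 77.3 and 45.4 in Cy3 and 92.0 and 57.9 in Cy5, and Snap25 ranked at 24.7. Rbfox3 exceeded the control limit on both Dll1-3 arrays and on neither Dll1-5 array, and Snap25 on none. Pvalb, of a class of interneurons, was not well above background in any channel, at 35.2 and 28.7 in Cy3 and 10.8 and 15.4 in Cy5.

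**Figure D2:**
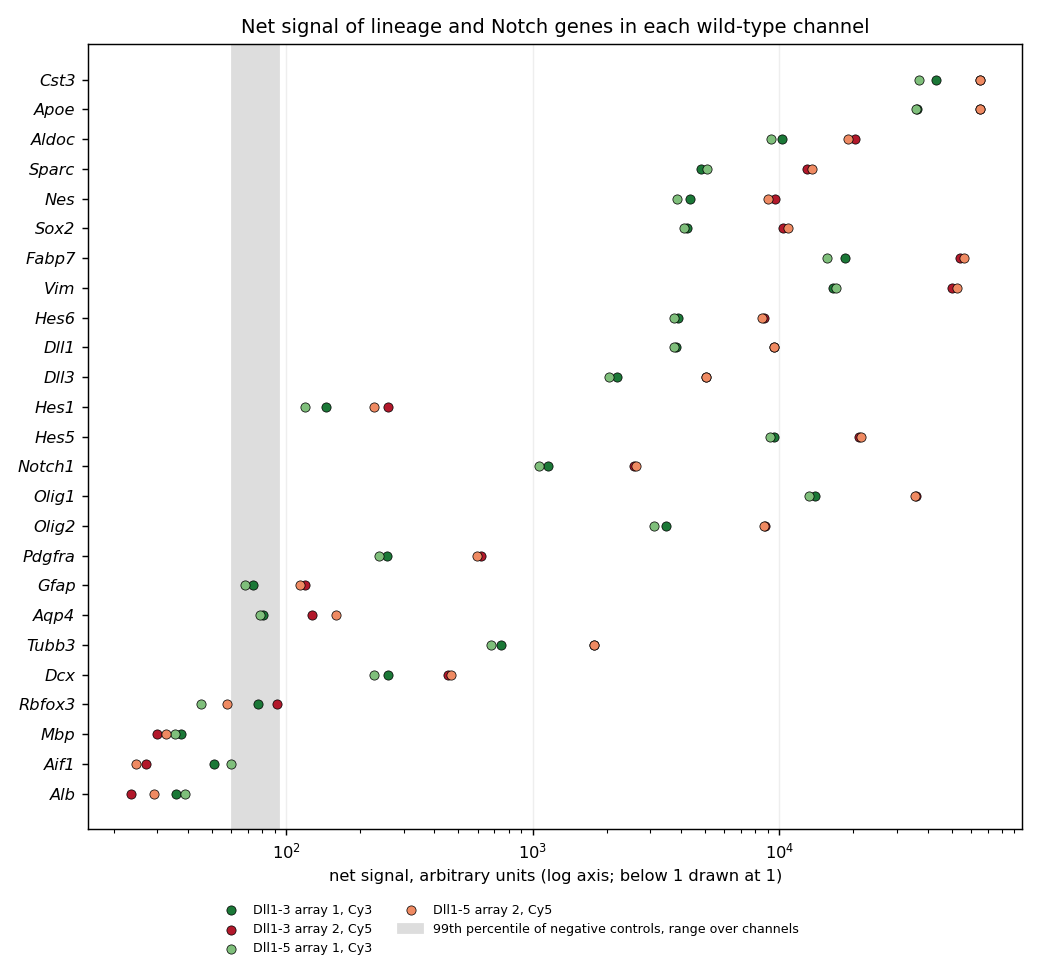
Net signal of 25 lineage and Notch genes in each of the 4 wild-type channels, on a log axis in arbitrary units, with green dots for Cy3, red and orange dots for Cy5, and the range of the negative control limit over channels in grey. Dots of one dye nearly coincide for genes above the grey band; Cst3 and Apoe reach the scanner ceiling in Cy5, Gfap and Aqp4 lie at the edge of the band, and Mbp, Aif1 and Alb lie below it.

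The Notch pathway was taken by the roles of its members. Of 10 ligands and receptors, 2 were abundant (20%) and 8 moderate, with a median rank of 81.9, and 8 were clear. Over genes with a RefSeq symbol 11.8% were abundant, with a median rank of 59.3. Both abundant genes were ligands of the Delta family. Dll3, a ligand that mostly acts inside the cell that makes it, read 2208 and 2036 in Cy3 and 5052 and 5071 in Cy5. Jag1, a ligand of the Jagged family, was moderate at 585 and 535 in Cy3 and 1434 and 1391 in Cy5. The other Delta ligand, Dll4, known from blood vessels, was moderate at rank 56.3. Jag2 read 44.9 and 38.1 in Cy3 and 36.6 and 39.3 in Cy5, and with the non-canonical ligand Dlk1 it was not clear. Among receptors Notch1 read 1153 and 1058 in Cy3 and 2584 and 2627 in Cy5, and missed the abundant class because it was below the top 10% of the Cy5 channel of Dll1-3. Notch3 ranked at 83.9, Notch2 at 80.7 and Notch4 at 52.4, all of them clear and moderate.

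Of 24 genes that modify, cut or transmit the Notch signal, 2 were abundant (8.33%), 21 moderate and 1 partly detected. The abundant share is near the 9.43% over all genes and below the 11.8% over genes with a RefSeq symbol. It is no result about the list. Mib1, the ubiquitin ligase that lets Delta ligands signal, read 3702 and 3395 in Cy3 and 9381 and 9616 in Cy5, and 2 of its 3 probes were clear. Dtx4, of the Deltex family, read 1841 and 1326 in Cy3 and 7452 and 6466 in Cy5. Rbpj, the DNA-binding partner of cut Notch, was moderate at 471 and 444 in Cy3 and 1057 and 1038 in Cy5. Psenen, a subunit of the gamma-secretase that cuts Notch, ranked at 89.4 and Adam17, a surface protease, at 71.0. Adam10, the surface protease that acts before gamma-secretase, read 75.7 and 59.1 in Cy3 and 80.5 and 83.1 in Cy5 and was not clear. The coactivator Maml3 was flagged above background in 1 of 4 channels. Dtx1 ranked at 83.3, Psen2 at 81.4 and the fringe genes Mfng and Lfng, which add sugars to Notch, at 67.4 and 62.2.

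The Hes and Hey repressors, which are targets or relatives of targets of Notch, had 3 abundant and 6 moderate genes of 9. Hes5, the main Hes target of Notch in neural progenitors, read 9564 and 9215 in Cy3 and 21007 and 21398 in Cy5, at rank 98.97. Hey1, another target, read 2552 and 2166 in Cy3 and 5565 and 5720 in Cy5. Hes1, also a Notch target, was moderate at 146 and 119 in Cy3 and 259 and 228 in Cy5, at rank 59.7. The 3 abundant genes, Hes5, Hes6 and Hey1, were in the top 10% of all 4 channels, and Hes1 was outside it in all 4. Hes2 ranked at 82.8 and Hey2 at 43.9, close to the control limit, while Heyl, Hes3 and Hes7 were not clear.

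Proneural and neuronal transcription factors numbered 20, of which 3 were abundant, 10 moderate, 5 partly detected and 2 not above background. The abundant share of 15% is near the 11.8% over genes with a RefSeq symbol, and 10 of the 20 were clear (50%). Neither share is a result about the list. The abundant ones were Tcf4 and Tcf12, which pair with proneural factors and are made by many cell types, and Sox4, of young neurons and progenitors. Sox11, a relative of Sox4, followed at rank 90.5 as moderate. Neurog1 was moderate at 198 and 168 in Cy3 and 464 and 410 in Cy5, and Neurog2 at rank 56.4. Both neurogenins were clear in every channel. Eomes, of cortical intermediate progenitors, and Tbr1, of young cortical neurons, were not well above background in any channel. Tbr1 read 34.8 and 34.8 in Cy3 and 17.7 and 18.04 in Cy5. The Id, Nfi and Zic factors, which include inhibitors of proneural proteins (Id) and drivers of gliogenesis (Nfi), had 5 abundant genes of 13, namely Nfia, Nfib, Id4, Id2 and Zic1, and a median rank of 88.2.

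None of the 29 forebrain and patterning factors was abundant; 24 were moderate, 2 partly detected and 3 not above background, and 17 were clear. With the median over probes 1 of them was abundant. The highest were Meis2 at rank 89.1, Gsx1, of ventral progenitors, at 83.8, Pax6 at 77.6 and Lhx2 at 73.0. Otx2, of forebrain and midbrain, Nkx2-1, of the ventral forebrain, and En1, of the midbrain and hindbrain border, were not well above background in any channel. En1 read 32 and 29.8 in Cy3 and 7.14 and 7.93 in Cy5.

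Hox genes, which set position along the hindbrain and spinal cord, were mostly dim. Of 38 measured, none was abundant, 19 were moderate, 12 partly detected and 7 not above background. The median rank was 27.6, the lowest of the 36 lists, and 10 of 38 (26.3%) were clear against 54.03% over all genes. That share is close to the one of olfactory receptors given below, so it is no result about the list, and what follows are values of single genes. Among the clear members were Hoxc5, Hoxc4, Hoxb6, Hoxa5, Hoxa3, Hoxa4, Hoxb3, Hoxa6 and Hoxa2. Hoxc5 read 410 and 312 in Cy3 and 1753 and 1506 in Cy5, at rank 80.8. Hoxc4 read 440 and 382 in Cy3 and 1337 and 1211 in Cy5, at rank 80.3. Hoxb6 read 241 and 207 in Cy3 and 554 and 507 in Cy5, at rank 69.7. These 3 were several times the control limit in each channel. Hoxa7 read 176 and 44.9 in Cy3 and 526 and 23.9 in Cy5 by its single probe, over the control limit on both Dll1-3 arrays and under it on both Dll1-5 arrays. Hoxa9, Hoxc12, Hoxc8 and Hoxb2 were among those not well above background in any channel.

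Cell cycle genes were well represented. Of 38 measured, 13 were abundant and 25 moderate, none lower, with a median rank of 85.4, and 37 were clear. Mcm6, of the helicase that opens replication origins, read 3363 and 3178 in Cy3 and 8051 and 7457 in Cy5. Mki67, the proliferation marker Ki-67, read 2603 and 2375 in Cy3 and 6027 and 5810 in Cy5. Mcm7, Pcna and Cdc20 each ranked at 94.4, in the top 10% of every channel. Cdk1, the kinase of mitosis, was moderate at 263 and 214 in Cy3 and 577 and 450 in Cy5. The cyclin gene Ccne2 was the only member that was not clear. Among 12 genes of CDK inhibitors and the p53 and retinoblastoma branch, Trp53 was the only abundant one (8.33%). It read 1822 and 1328 in Cy3 and 6209 and 6178 in Cy5. Beside 9.43% over all genes and 11.8% over genes with a RefSeq symbol, that share of 1 gene is no result about the list. With the median over probes 3 of the 12 were abundant. Cdkn1b ranked at 89.2, Cdkn2c at 88.9 and Cdkn2d at 88.4, whereas Cdkn1a was not clear and Cdkn2a, an inhibitor that rises with senescence, was flagged above background in 2 of 4 channels. Cdkn2a read 37.7 and 33.3 in Cy3 and 38.3 and 38.2 in Cy5.

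Metabolic lists held many abundant genes. Of 17 glycolytic genes 12 were abundant, led by Aldoa, Ldha, Aldoc and Gpi1. Aldoa, the aldolase of most tissues, read 21597 and 19336 in Cy3 and 54893 and 49277 in Cy5. Pfkp was not clear. Of 19 genes of cholesterol synthesis and uptake 10 were abundant and all were clear, led by Hmgcs1, which makes the precursor of mevalonate, and Srebf2, the factor that controls the pathway, with Msmo1 and Sqle next. Hmgcs1 read 10284 and 9544 in Cy3 and 26198 and 25494 in Cy5. With the median over probes in place of the brightest probe, 4 of the 19 were abundant. Of 19 lysosomal genes 11 were abundant, with Grn, Lamp1, Cd63 and Ctsd highest. Ctsd, an aspartic protease of most cells, read 6662 and 5953 in Cy3 and 13578 and 13210 in Cy5. Ctss, a cathepsin of microglia, read 60.5 and 49.4 in Cy3 and 79.9 and 49.2 in Cy5 and was not clear.

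Receptors and ligands of growth factors had 7 abundant genes of 31 (22.6%), against 11.8% over genes with a RefSeq symbol. Among them were Ntrk2, the receptor of BDNF, Egfr, Erbb4 and Igfbp5. Ntrk2 read 16797 and 16276 in Cy3 and 45143 and 39874 in Cy5. Egfr read 5671 and 4928 in Cy3 and 14531 and 13305 in Cy5, and 5 of its 6 probes exceeded the control limit in all channels. Of the 4 probes of Erbb4 only 1 did. The gene of EGF itself was not clear, at 102 and 66.7 in Cy3 and 108 and 79.8 in Cy5, and Fgf2 was moderate at rank 61.5. In the Wnt, BMP, TGF-beta and Hedgehog list 7 of 40 were abundant (17.5%), against the same 11.8%. They were led by Ctnnb1, which codes for beta-catenin, Smo, the Hedgehog signal transducer, Bmpr2 and Smad4. Tgfb1, Wnt3a and Grem1 were not well above background in any channel, and Shh was flagged in 1 of 4. Smo read 3724 and 3257 in Cy3 and 8592 and 7962 in Cy5 by the brightest of its 3 probes, of which 2 were clear, while Shh read 49.6 and 42.3 in Cy3 and 38.1 and 16.3 in Cy5.

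Of 34 genes of the extracellular matrix and its receptors, 9 were abundant (26.5%), against 11.8% over genes with a RefSeq symbol. The highest were brain proteoglycans. Ncan, which codes for neurocan, read 22631 and 21894 in Cy3 and 57119 and 56032 in Cy5. Bcan, which codes for brevican, read 19824 and 18462 in Cy3 and 37383 and 35229 in Cy5. With Ptprz1 and the secreted glycoprotein gene Sparc these led the list, while the fibrillar collagen genes Col1a1 and Col3a1 were not clear. Of 19 potassium channel genes 1 was abundant (5.26%), Kcnd2, an A-type channel. It read 3856 and 3344 in Cy3 and 10528 and 10236 in Cy5. The next by rank were Kcnn2, Kcnj16 and Kcnh2, whereas Kcnk2 and Kcna1 were not well above background in any channel. Of 23 glutamate and GABA receptor genes 1 was abundant (4.35%), and in neither list is a share of 1 gene a result. It was Gabbr1, a subunit of the GABA-B receptor, at 2119 and 1959 in Cy3 and 4892 and 4844 in Cy5. Of its 4 probes 2 were not clear, and with the median over probes no gene of the list was abundant. Gabrg1, Grik5 and Gabbr2 followed as moderate genes, and Grin2a, an NMDA receptor subunit of mature neurons, was not well above background in any channel.

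Immediate early genes, which respond to growth factors and handling within minutes, had 5 abundant members of 16 (31.25%). The share over genes with a RefSeq symbol was 11.8%. The 5 were Jund, Junb, Egr1, Btg2 and Nr4a1. Fos was moderate at 645 and 578 in Cy3 and 1414 and 1297 in Cy5. Of 23 interferon response and MHC class I genes 2 were abundant (8.7%), Ifitm3 and B2m, the light chain of MHC class I. That share is near the 9.43% over all genes and below the 11.8% over genes with a RefSeq symbol. It is no result about the list. Tapbp and H2-K1, of the same antigen pathway, followed as moderate at rank 90.1 and 86.5. B2m read 1400 and 1351 in Cy3 and 3698 and 3602 in Cy5, and Ifit1 and Oasl2, which interferon induces, were partly detected. Of 10 sex-linked genes 4 were abundant, the X-linked Ddx3x, Kdm5c and Eif2s3x and the Y-linked Eif2s3y. With the median over probes 2 of the 10 were. Eif2s3y read 1287 and 1146 in Cy3 and 3470 and 3286 in Cy5. The Y-linked Ddx3y ranked at 75.7, Zfy1 at 61.6, Kdm5d at 56.2 and Uty at 55.7, and all were clear in the channels of both array sets. Xist, the RNA of the inactive X chromosome, read 64.4 and 55.3 in Cy3 and 133 and 88.8 in Cy5. It passed the control limit on both Dll1-3 arrays and on neither Dll1-5 array, but each channel has its own limit. The Dll1-3 reading in Cy3 barely passed its limit of 64.2. The Dll1-5 reading in Cy5 missed its limit of 94.1, although it lay over the Dll1-3 limit of 70.9 in that dye. Whether the pools differ in Xist was not tested.

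Lists of blood, vessel and fibroblast, neural crest, ependymal, and pluripotency and germ line genes had few or no abundant genes. Of 19 microglia and blood genes none was abundant and 6 were clear, among them Cd3e, Hba-a1, Hbb-bt, C1qb and Lyz2. The microglial Aif1, Cx3cr1 and Ptprc were not clear, and Itgam, Spi1 and C1qc were not well above background in any channel. Itgam read 38.3 and 30.1 in Cy3 and 24.2 and 20.4 in Cy5. Of 20 endothelial, mural and fibroblast genes 2 were abundant, Acta2 and Tagln, which code for smooth muscle actin and a protein that binds it. Acta2 read 2991 and 2910 in Cy3 and 7122 and 7328 in Cy5, although its other 4 probes ranked at 65.5, 42.8, 24.6 and 5.92 among all probes. The other Tagln probe ranked at 18.7, and with the median over probes 1 gene of the list was abundant. The share of 10% is near the 9.43% over all genes and the 11.8% over genes with a RefSeq symbol. Col1a2, a fibrillar collagen, was moderate at rank 61.2. The endothelial Pecam1 and Cdh5 were each flagged in 2 of 4 channels, and Cldn5 and the mural Pdgfrb were not clear. Pecam1 read 46.7 and 29.2 in Cy3 and 40.3 and 30.8 in Cy5. None of 12 Schwann cell and neural crest genes was abundant, the highest being Tfap2a, Pmp22, Mitf and Sox10, and Twist1 was not well above background in any channel. Of these 12 genes 9 were clear (75%), against 63.4% over genes with a RefSeq symbol. Their median rank was 53.7, against 59.3 over the same genes. None of 14 ependymal and choroid plexus genes was abundant and 7 were clear (50%). Foxj1, which drives the making of motile cilia, was moderate at 551 and 503 in Cy3 and 1155 and 1075 in Cy5, followed by Folr1, Dnah9 and Hydin. Ttr, the main product of the choroid plexus, and Dnah11 were not well above background in any channel. Ttr read 32.6 and 31.9 in Cy3 and 11 and 11.9 in Cy5. Of 16 pluripotency and germ line genes none was abundant and 6 were clear, with Klf4 highest at rank 84.7 and Prm1, Utf1 and Dppa5a next. Pou5f1 and Nanog were not clear, and Lin28a was not well above background in any channel.

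Many genes of other organs were well above background by the flag and some were clear, and what their signal stands for was not tested. Of 22 genes of liver, muscle, skin and pancreas none was abundant, but 17 were moderate by the flag and 7 were clear, led by Krt10, Krt5, Lor and Krt14. Alb, the albumin gene, read 35.9 and 39.1 in Cy3 and 23.4 and 29.2 in Cy5 and was flagged in 2 of 4 channels, and Cyp2e1 in none. Among 906 olfactory receptor genes, taken by their symbol, 586 were moderate by the flag, 241 clear (26.6%) and 5 abundant, and the median rank was 32.4. The abundant ones were Olfr571, Olfr1153, Olfr63, Olfr1444 and Olfr1065. Of 132 vomeronasal receptor genes none was abundant and 21 were clear (15.9%). The share of clear genes was 31.6% in the microglia and blood list, 30% in the endothelial, mural and fibroblast list, 31.8% in the liver list and 26.3% in the Hox list. These shares lie close to that of the olfactory receptors and are no result about those lists.

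Other families followed the same division. All 36 NADH dehydrogenase subunit genes and all 78 mitochondrial ribosomal protein genes were clear, with 31 and 29 abundant. Proteasome subunits had 25 abundant of 43, splicing factors 12 of 20, translation initiation factors 27 of 53 and histones 15 of 38. Zinc finger genes of the Zfp series had 24 abundant of 341, a share of 7.04%, with 78.3% clear. Sox factors had 5 abundant of 19 (26.3%), and solute carriers 25 of 326 (7.67%), with 58.9% clear. The abundant shares of the Zfp series and of solute carriers are below the 9.43% over all genes and the 11.8% over genes with a RefSeq symbol. The latter is the nearer base, since the families were taken from those genes. What the lower shares stand for was not tested. Beta-defensins, interleukins, chemokines, keratins, cytochrome P450 genes and Wnt ligands had none. The families were chosen after the lists had been read.

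Promoters were set beside the classes through the RefSeq table of build GRCm38.p6, which holds the 300 bases from 250 before to 50 after each start. It matched 14785 of 18504 protein-coding genes measured (79.9%), 1882 of 2289 abundant ones and 7908 of 9800 moderate clear ones. Fewer than 80% of the genes matched in each of the dimmer classes, so for them the check is void and no composition is given. The 5 promoters shown are single examples, picked by hand from bright genes and genes not well above background, and do not stand for the classes. They are those of an astroglial gene, the ligand Dll1, a ribosomal gene, a liver gene and a microglial gene. Each is the 250 bases before the first listed start, read 5′ to 3′ on the strand of the gene, with each CpG (CG) in capitals.
Cst3: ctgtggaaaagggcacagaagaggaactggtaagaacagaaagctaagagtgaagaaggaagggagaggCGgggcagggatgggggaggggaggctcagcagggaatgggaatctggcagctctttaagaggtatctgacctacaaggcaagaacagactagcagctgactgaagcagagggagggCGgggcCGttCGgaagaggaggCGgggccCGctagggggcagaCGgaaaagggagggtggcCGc
Dll1: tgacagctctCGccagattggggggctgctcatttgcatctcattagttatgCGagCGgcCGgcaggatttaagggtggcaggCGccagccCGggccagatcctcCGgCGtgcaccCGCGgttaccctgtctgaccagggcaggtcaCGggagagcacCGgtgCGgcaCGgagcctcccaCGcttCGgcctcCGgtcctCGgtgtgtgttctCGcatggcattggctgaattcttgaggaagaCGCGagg
Rplp0: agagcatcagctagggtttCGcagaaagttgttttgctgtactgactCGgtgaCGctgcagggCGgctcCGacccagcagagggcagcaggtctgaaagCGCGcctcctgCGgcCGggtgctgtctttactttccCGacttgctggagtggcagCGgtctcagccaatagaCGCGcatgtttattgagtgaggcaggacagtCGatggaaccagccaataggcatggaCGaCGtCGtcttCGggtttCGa
Cyp2e1: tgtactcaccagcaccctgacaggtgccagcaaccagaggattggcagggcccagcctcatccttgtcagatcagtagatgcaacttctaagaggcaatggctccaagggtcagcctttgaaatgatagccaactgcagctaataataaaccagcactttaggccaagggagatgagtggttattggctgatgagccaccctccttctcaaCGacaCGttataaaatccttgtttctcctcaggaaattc
Itgam: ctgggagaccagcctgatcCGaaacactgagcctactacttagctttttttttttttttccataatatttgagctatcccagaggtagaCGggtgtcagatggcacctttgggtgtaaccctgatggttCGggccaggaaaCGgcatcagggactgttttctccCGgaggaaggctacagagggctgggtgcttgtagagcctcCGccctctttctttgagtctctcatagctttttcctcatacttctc
The windows lie at chr2:148875513-148875762 (Cst3, minus strand), chr17:15375824-15376073 (Dll1, minus), chr5:115559217-115559466 (Rplp0, plus), chr7:140763569-140763818 (Cyp2e1, plus) and chr7:128062390-128062639 (Itgam, plus), all of GRCm38.p6. Dll1 holds 21 CpGs, Rplp0 19, Cst3 8, Itgam 6 and Cyp2e1 2.

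The ratio of observed to expected CpGs had a median of 0.82 over the promoters of abundant genes and 0.75 over those of moderate clear genes, against 0.58 over all 17492 protein-coding genes of the table. It exceeded 0.6 in 80.5%, 68.4% and 48.3% of them. A GC box (GGGCGG on either strand) was in 69.1%, 61.5% and 46.3%, and the core of an Ets site (CCGGAAG) in 21.5%, 16.7% and 11.9%. A TATA box (TATAAA) was in 7.92%, 8.28% and 13.3%, and a CCAAT box (CCAAT) in 40.8%, 39.1% and 39.03%. These are counts of letters over both strands, and none of these motifs contains another. No test was made, since genes are not replicates, and what the shares stand for was not tested.

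**Figure D3:**
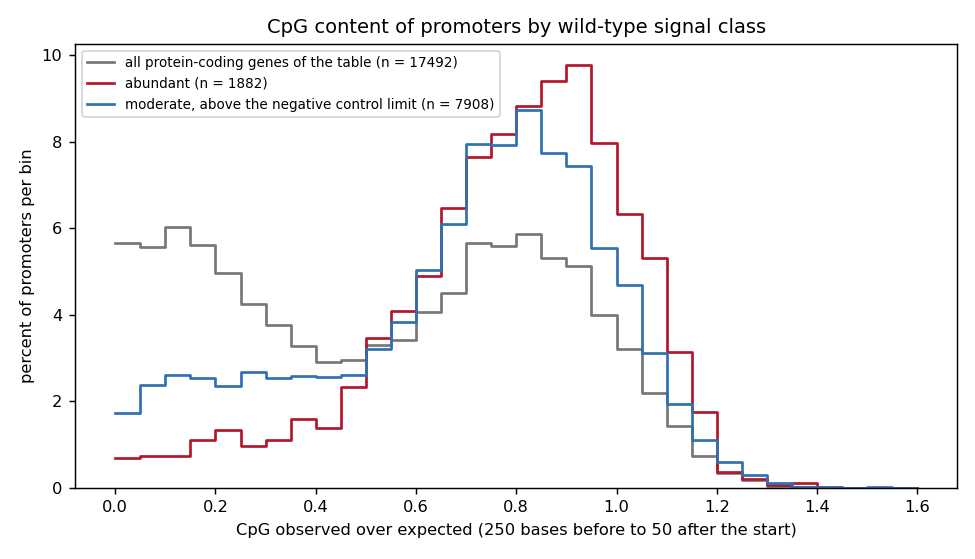
Distribution of the observed over expected CpG ratio in the 300-base promoter windows, as percent of promoters per bin of 0.05, for all protein-coding genes of the table (n = 17492), abundant genes (n = 1882) and moderate clear genes (n = 7908). The heap at low ratios that all genes show is nearly missing among abundant genes, whose median is 0.82.

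The wild-type RNA of the Dll1-3 arrays and that of the Dll1-5 arrays gave nearly the same levels. Log2 net signals were quantile-normalised over the 4 channels for the 20393 genes measured and well above background in all of them, and compared Cy3 with Cy3 and Cy5 with Cy5. Each side is 1 pool read in both dyes, so no test between pools is possible, and a gene was counted where it differed at least 2-fold the same way in both dyes. In both dyes 94.9% of genes lay within 1.5-fold. Among these genes 2 were higher on the Dll1-3 arrays (0.00981%) and 5 on the Dll1-5 arrays (0.0245%). The filter leaves out any gene that one array set lost. Without it 48 of 27238 genes were counted, 31 higher on the Dll1-3 and 17 on the Dll1-5 arrays, and 22 of the 48 were under the control limit in both channels of their higher set. In 10 genes both channels of the higher set were over the limit and both of the other under it, and Hoxa7, with the readings given above, was 1 of them and fell outside the filter. Ctsz, a cathepsin of phagocytes, read 103 and 47.5 in Cy3 and 218 and 60.9 in Cy5, higher on the Dll1-3 arrays. Both Dll1-5 readings were under the control limit, so no fold is given, and its log2 difference ran from 0.94 with normexp to 2.24 with the scanner's processed signal. Mical1, an enzyme that takes actin filaments apart, read 139 and 61.4 in Cy3 and 364 and 107 in Cy5, 2.57-fold higher on the Dll1-3 arrays. Its Dll1-5 reading in Cy3 was barely over the control limit of 60.6. The log2 difference of Mical1 ran from 1.06 with normexp to 1.68 with the scanner's processed signal. Fbln2, a matrix glycoprotein, read 118 and 211 in Cy3 and 218 and 579 in Cy5, and was 2.37-fold higher on the Dll1-5 arrays. The remaining 4, Rln1, Mrvi1 and transcripts with clone or probe names (AK036096 and A_52_P1077067), were higher on the Dll1-5 arrays and below the control limit in both Dll1-3 channels. Mical1 and Fbln2 were the only genes of the 7 over the limit in all 4 channels.

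None of the 5 markers was among the 7 genes. The call count depended on the processing: 2 genes after median centring, of which 1 was among the 7, 2 after loess and Aquantile and 1 after normexp, all among the 7, and 30 from the scanner's processed signal, which held all 7. Read from a single dye pair it was 116 without the Dll1-3 replicate 1 array, 136 without its replicate 2, 115 without the Dll1-5 replicate 1 array and 153 without its replicate 2. Treating the 4 channels as separate samples in limma, 0 of 20393 genes passed a Benjamini-Hochberg adjusted p of 0.05 with the replicate block, where 2095 had an unadjusted p below 0.05. Without the block limma called 0 genes, and 697 had an unadjusted p below 0.05. The flag was set in both channels of the Dll1-3 arrays and in neither of the Dll1-5 arrays for 198 genes, and the other way round for 111, all of them at ranks below 30.

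**Figure D4:**
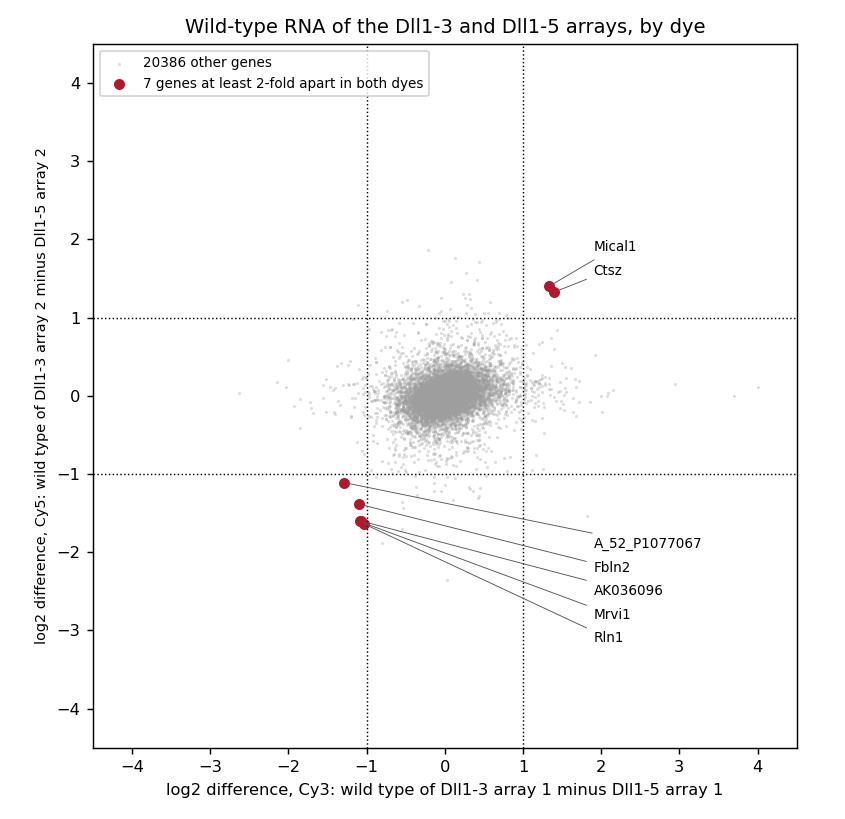
Log2 difference of wild-type signal between the Dll1-3 and Dll1-5 arrays for 20393 genes, in Cy3 on the horizontal and in Cy5 on the vertical axis, after quantile normalisation; dotted lines mark 2-fold. The 7 red genes lie past the lines in both dyes, 2 at the upper right and 5 at the lower left, and other genes far out in one dye lie near 0 in the other.

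For the typical gene, readings differed more between the dyes of a line than between array sets. The dye cannot be told apart from the replicate number here. Between dyes on the arrays of one line the median absolute log2 difference was 0.13 for Dll1-3 and 0.14 for Dll1-5, and between array sets within a dye it was 0.09 in Cy3 and 0.08 in Cy5. The standard deviation of the log2 difference did not separate them in the same way. It was 0.25 for Dll1-3 and 0.27 for Dll1-5 between dyes, and 0.25 in Cy3 and 0.18 in Cy5 between array sets. Pearson's r across genes of log2 net signal was 0.996 in Cy3 and 0.995 in Cy5 between array sets, and 0.985 and 0.984 between dyes of a line; these are correlations across genes, which are not independent replicates. After quantile normalisation 1 gene was at least 2-fold higher in Cy5 on the arrays of both lines (0.0049%), Defa31, an intestinal defensin. Another 4 were higher in Cy3 (0.0196%), namely Ms4a10, Mtus2, Ppp1r17 and AK052098. Ms4a10 read 109 and 104 in Cy3 and 55.96 and 42.1 in Cy5, and Defa31 read 63.9 and 44.3 in Cy3 and 223 and 128 in Cy5. With median centring in place of quantile normalisation 13 genes were higher in Cy5 and 1856 in Cy3, and 4 of the 5 genes were among them. In limma with the line as a covariate 0 genes passed the adjusted threshold and 5816 had an unadjusted p below 0.05. None of the 5 markers was among the genes called between dyes, although Cst3 and Apoe, saturated in Cy5, have no usable difference there.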

How the data were processed

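Total RNA was amplified, labelled and hybridised in pairs to 4 arrays, per the labels' protocols. The authors deposited the scanned intensity of every spot, written by Agilent Feature Extraction 8.1.1.1 according to the submitters' processing notes. The software's flags for background, saturation and outliers are other columns of the same deposited files. A value table of the series holds ratios of both channels and was not used here. No column came from another sample.

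Of 43790 spots per array, 2256 were control spots and were left out, as were 24 to 77 outlier spots of the wild-type channel. Saturated spots stayed in. Repeat spots were averaged into 41174 probes. Names came from the RefSeq table of GRCm38.p6 for 22864 probes by accession, 6732 by symbol and 3498 by synonym; the name on the array was used for 8080. A gene was read at its brightest probe. Of 9026 genes with more probes, 1693 had a probe over 50 rank points dimmer. A gene flagged above background by any of its probes counted as such. In 151 genes an outlier spot left out 1 or more channels.

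The 2 comparisons used log2 net signals with quantile normalisation, Python 3.11.15 with pandas 2.3.3 and numpy 2.4.6, and limma 3.58.1 in R 4.3.3 with lmFit, eBayes and Benjamini-Hochberg adjustment. The call rule was tested on simulated data. Replicate number pairs the arrays by dye: the deviations of replicate 1 from the line mean correlated at r = 0.894 between lines, and at 0.451 after quantile normalisation. Each array was a separate slide, so slide could not be tested as a batch. The number of arrays limits the precision, and limma's p-values measure the spread between these 4 channels, which may be technical.

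Genes were named by rule: the 5 markers; the 25 abundant genes of highest mean rank; the 4 highest of each of 36 lists and up to 3 members not above background; and the 10 highest and lowest of each comparison, passing over clone names. Fixed cell type markers were named too, and other list members were named after their values were seen. The members, lists and rules were chosen with earlier results of these data known. Alternatives covered the signal, flag, probe summary, outlier spots, normalisation, thresholds and leaving out each array. Figures used matplotlib 3.10.9. Some genes of these lists are not reported here.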

Additional observations from a re-analysis of the deposited data

Results flagged for a closer look

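The 4 wild-type channels were checked for a value standing apart from the other 3 by Dixon's criterion, over 43 values: the median rank of each of 36 lists, the rank of each of the 5 markers and both shares of genes above background. Chance gives about 1 in 20, and 3 stood apart. The median rank of the oligodendrocyte lineage list was 60.8 on the Dll1-5 replicate 1 array and 62.4 to 62.5 on the others. That of the respiratory chain list was 97.2 on the Dll1-5 replicate 2 array and 97.4 on the others. That of the Wnt, BMP, TGF-beta and Hedgehog list was 69.5 on the Dll1-3 replicate 1 array and 70.4 to 70.6 on the others. Each gap was under 2 rank points.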

How the results depend on the processing

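The counts of genes in the 4 signal classes stayed within 1.5 times the reported count in 34 of 37 alternatives. The exceptions were the abundant class at 1302 genes with the top 5% and 5237 with the top 20%, and 294 genes not above background with the scanner's more lenient flag of a positive and significant signal. Leaving out each array gave 2599 to 2612 abundant, 18131 to 18382 moderate, 3079 to 3515 partly detected and 2958 to 3329 genes not above background. The count of clear genes ran from 11266 with the brightest negative control spot as the limit to 17701 with their 95th percentile, choices made after seeing the data, and from 14805 to 15348 without each array. Counts of abundant list members changed by over 1.5 times in 7 of 144 alternatives, all with the median over probes, and the count stands beside each such list. Between array sets 7 genes were counted. The count was 2 with median centring (1 shared with the 7), 2 with loess and Aquantile (2 shared), 1 with normexp (1 shared), 30 with the scanner's processed signal (7 shared), 48 without the filter on dim genes (7 shared), 65 at 1.5-fold, 0 at 3-fold, 115 to 153 without each array, and 0 in limma with or without the replicate block. The split of higher on Dll1-3 against Dll1-5 arrays was 2 to 5 in the main setting, 2 to 0 with median centring, 1 to 1 with loess, 15 to 15 with the processed signal and 31 to 17 without the filter. Between dyes 5 genes were counted. Under the same first 5 settings the count was 1869 (4 shared with the 5), 17 (0 shared), 0, 40 (4 shared) and 119 (3 shared), so most of these are other genes. It was 146 at 1.5-fold, 0 at 3-fold, 89 to 235 without each array, and 0 in limma with the line as a covariate or without it, where 5816 and 4876 had an unadjusted p below 0.05. Higher in Cy5 against Cy3 was 1 to 4 in the main setting, 13 to 1856 with median centring, 0 to 17 with loess, 14 to 26 with the processed signal and 21 to 98 without the filter. There the replicate number is the dye, so a replicate block could not be fitted. None of the named differences changed sign; the cause of the changed counts was not tested. Signals near the negative controls limit what can be said of dim genes, and saturation of 62 and 63 genes in Cy5 limits the brightest.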
